A study of Vigna radiata with 9 samples.

Results

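The genes described here are the evening genes of the circadian clock of mung bean (Vigna radiata), 6 of 26966 annotated genes. They were chosen by product description, as every gene described as transcription factor LUX, as the pseudo-response regulators APRR1 or APRR5, or as GIGANTEA. This gave 1 LUX gene, 2 APRR1 genes, 1 APRR5 gene and 2 GIGANTEA genes. The rule uses no measured value, but these genes were chosen with earlier results of these data known. All 6 had enough counts to be tested. LUX (LOC106754173) lies on chromosome 2 of the Vradiata_ver6 assembly from 4588694 to 4591252. The APRR1 genes lie on chromosome 7 from 38576824 to 38582446 (LOC106769035) and on chromosome 3 from 10571692 to 10576727 (LOC106756669), and APRR5 (LOC106760140) lies on chromosome 5 from 404026 to 408131. The GIGANTEA genes lie on chromosome 1 from 23329142 to 23346532 (LOC106772306) and on chromosome 8 from 38846114 to 38862063 (LOC106771921).

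The plant clock is a set of transcription factors that repress each other in turn through the day, so that their transcripts peak at different hours. In Arabidopsis, LHY and related MYB factors are made in the morning, pseudo-response regulators follow through the day, and APRR1 (also called TOC1), GIGANTEA and the evening complex of ELF3, ELF4 and LUX come towards dusk. GIGANTEA stabilises F-box proteins that sense blue light and, through them, times flowering, and LUX is the subunit of the evening complex that binds DNA. The clock of Arabidopsis also sets when cold-response genes can be induced.

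Leaf RNA of the variety Lvfeng No.2, labelled as wild type, was sequenced in 9 libraries, 3 pots for each of 3 groups. LT+S plants were sprayed with uniconazole, a triazole inhibitor of gibberellin synthesis, at 50 mg/L and kept at 15 °C. LT plants had the same cold after a spray of water, and CK plants had the water spray and stayed outside the phytotron, in the natural environment. The spray was given at the onset of flowering, and cold began 36 h later and lasted 4 days in a phytotron with natural light, so that both cold groups differ from CK in where the plants stood and not only in temperature. A pot held several plants, and it is not stated whether their leaves were pooled. The compound is written S3305 for LT+S 1, S3306 for LT+S 2 and S3307 for LT+S 3 in the labels and S3307 throughout in the methods, and the libraries were taken as replicates of 1 treatment. Each group was sampled once, and the hour of sampling is not given in the sources used here, so that for genes with a daily rhythm a change in level and a change in the time of the peak cannot be told apart.

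Total counts were 19561896 to 21617340 per library. Genes of leaf identity (the small subunit and activase of Rubisco, chlorophyll a-b binding proteins and chloroplast carbonic anhydrases) were detected in every library, with summed levels of 32703 to 42314 CPM in LT+S, 20553 to 45289 CPM in LT and 138300 to 173770 CPM in CK over 27 of 27 genes. CPM are read counts relative to the total of their library, after TMM scaling. The CK libraries differed among themselves in 23 genes of veins and lignified walls, 2 of them at 0 throughout, whose summed level was 56.8 CPM in CK 1, 298 CPM in CK 2 and 510 CPM in CK 3, beside 214 to 266 CPM in LT+S and 144 to 396 CPM in LT. Genes described as leghemoglobin or nodulin (33 genes, 10 of them at 0 throughout) summed to 432 to 520 CPM in LT+S, 378 to 435 CPM in LT and 1385 to 1746 CPM in CK. The 6 floral genes, 1 of them at 0 throughout, summed to 21.8 to 25.3 CPM in LT+S, 28.3 to 43.4 CPM in LT and 8.19 to 12.05 CPM in CK. The part of these differences in the results below was not tested, and in bulk leaf fewer cells of a type and less RNA per cell cannot be told apart.

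Most evening genes were higher under cold. At an adjusted p below 0.05 from edgeR, 5 of the 6 were higher and 0 lower in LT, and likewise 5 higher and 0 lower in LT+S, each set against CK. Calls were common in these comparisons. Of the 19304 genes tested, 46.5% were called in LT against CK (22.8% higher and 23.7% lower), and 41.7% in LT+S against CK (19.7% higher and 21.9% lower). DESeq2 called the same numbers of members, 5 higher and 0 lower in each, and limma-voom called 5 higher in LT and 4 higher in LT+S, with 0 lower. All cold libraries were above all CK libraries for 5 of the 6 genes in LT and for 5 of the 6 in LT+S, as they were for 27.8% and 28.2% of all genes. The median log2 fold change of the 6 was 0.82 in LT and 1.01 in LT+S against CK, beside 0.01 over all genes in both comparisons. As LT and LT+S are set against the same 3 CK libraries, their values are given side by side and do not count as separate evidence. Fold changes past 2 with an unadjusted p below 0.05, the threshold named in the methods, were found for 2 of the 6 in LT (11.8% of all genes were higher by this rule) and for 3 of the 6 in LT+S (10.8%). Where libraries were scaled by their totals alone, the median of all genes moved by 0.51 in LT and by 0.49 in LT+S against CK. The share of higher genes among the calls was then 80.0% for LT and 81.8% for LT+S, against 49.0% and 47.4% with TMM. The 5 evening genes were called with either scaling. With library totals, 9275 of the 19304 genes tested were called higher and 2314 lower in LT against CK. In LT+S against CK, 8979 were called higher and 1997 lower on that scale. By the rule of a change past 2-fold, 5 of the 6 were higher in each comparison with library totals, beside 24.7% of all genes in LT and 22.3% in LT+S. The values that follow are relative to the TMM scale.

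**Figure D1:**
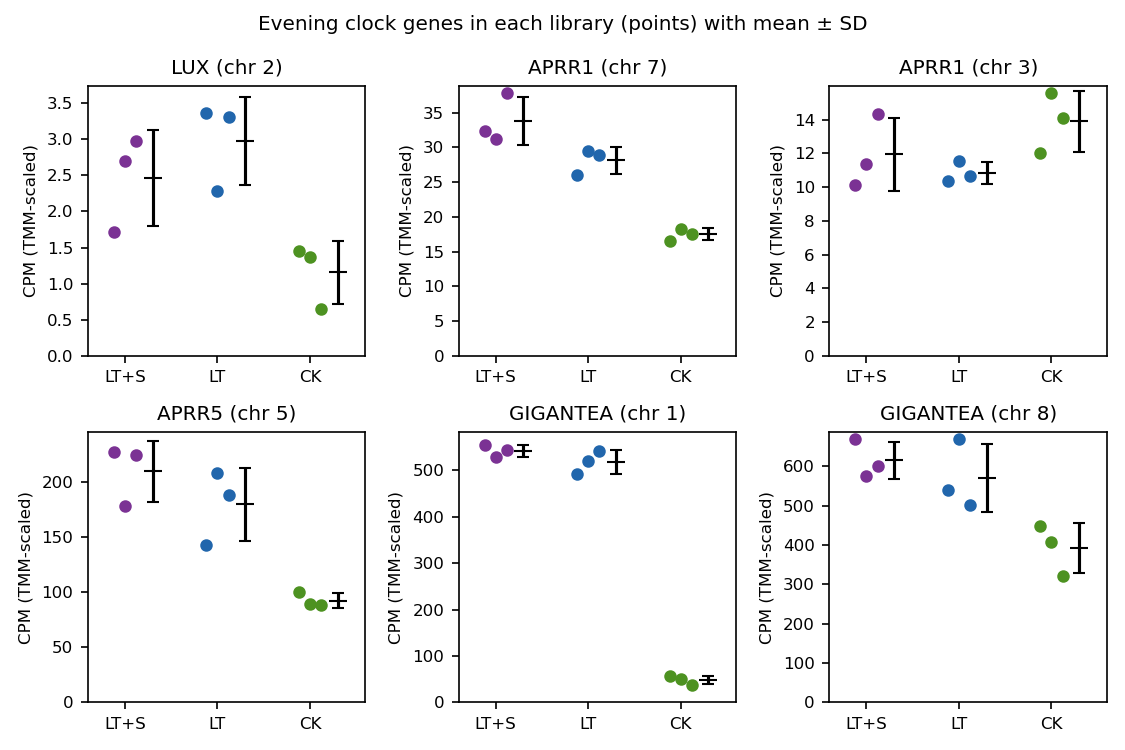
Levels of the 6 evening clock genes in CPM after TMM scaling (vertical axis, from 0) in the 3 libraries of LT+S, LT and CK (points), with the mean and SD of each group beside them (bars). The chromosome 1 copy of GIGANTEA had 491 to 555 CPM in the 6 cold libraries and 38.0 to 56.0 CPM in CK, and the chromosome 3 copy of APRR1 is the gene whose mean was highest in CK on this scale.

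The largest change was in the chromosome 1 copy of GIGANTEA (LOC106772306), a large nuclear protein that links the clock to flowering time and, in Arabidopsis, to cold tolerance. It had 555, 528 and 544 CPM in LT+S, 491, 520 and 542 CPM in LT and 56.0, 51.4 and 38.0 CPM in CK. Every cold library thus stood above every CK library, and the cold groups overlapped each other. Group means were 542 ± 13.6 CPM in LT+S, 518 ± 25.3 CPM in LT and 48.5 ± 9.31 CPM in CK (SD, n = 3 each). Relative to CK the gene was 10.7-fold higher in LT (log2 fold change 3.42, 95% interval 3.04 to 3.80, adjusted p = 1.6e-05 from edgeR) and 11.2-fold higher in LT+S (log2 fold change 3.48, 95% interval 3.10 to 3.86, adjusted p = 2.4e-05 from edgeR). Its log2 fold change was above that of 98.6% of all genes tested in LT and of 98.8% in LT+S.

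The chromosome 8 copy of GIGANTEA (LOC106771921) changed far less. In LT+S it had 669, 576 and 601 CPM, in LT 539, 669 and 503 CPM and in CK 447, 407 and 322 CPM. The cold libraries were again all above CK, but the lowest LT library and the highest CK library were 503 and 447 CPM. It was 1.45-fold higher in LT than in CK (log2 fold change 0.54 ± 0.17 as value ± standard error, edgeR adjusted p = 0.0292) and 1.57-fold higher in LT+S (0.65 ± 0.17 on the log2 scale, edgeR adjusted p = 0.0150). The call in LT was lost without LT 1 (adjusted p = 0.0508 from edgeR), LT 2 (0.0787), CK 2 (0.0739) or CK 3 (0.0776) and with the 6 libraries of LT and CK alone (0.0617), and that in LT+S was not kept when LT+S 1 was left out (edgeR adjusted p = 0.0517). With libraries scaled by their totals its log2 fold changes were 1.04 in LT and 1.14 in LT+S against CK.

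The unequal response of the copies was also visible within each library, where no scaling enters. For each read of the chromosome 8 copy there were 0.829, 0.916 and 0.904 reads of the chromosome 1 copy in LT+S, 0.912, 0.777 and 1.08 in LT and 0.125, 0.126 and 0.118 in CK. The chromosome 1 copy thus held 45.3 to 47.8% of all GIGANTEA reads in LT+S and 43.7 to 51.9% in LT, against 10.6 to 11.2% in CK. The log2 ratio was 2.89 higher in LT and 2.84 higher in LT+S, both against CK (exact permutation test over libraries, 2-sided, p = 0.1 in both, the smallest that 3 libraries against 3 allow). Between LT+S and LT it differed by -0.05 (exact permutation test, 2-sided, p = 0.8). Both copies together gave 1157 ± 61.0 CPM in LT+S, 1088 ± 87.6 CPM in LT and 441 ± 73.4 CPM in CK (SD, n = 3 each). These ratios are of reads and not per transcript length, which was not used here, so that they show the change between groups and not which copy has more molecules. The treatment of reads that fit both copies is not stated in the methods, and its part in the ratios was not tested.

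**Figure D2:**
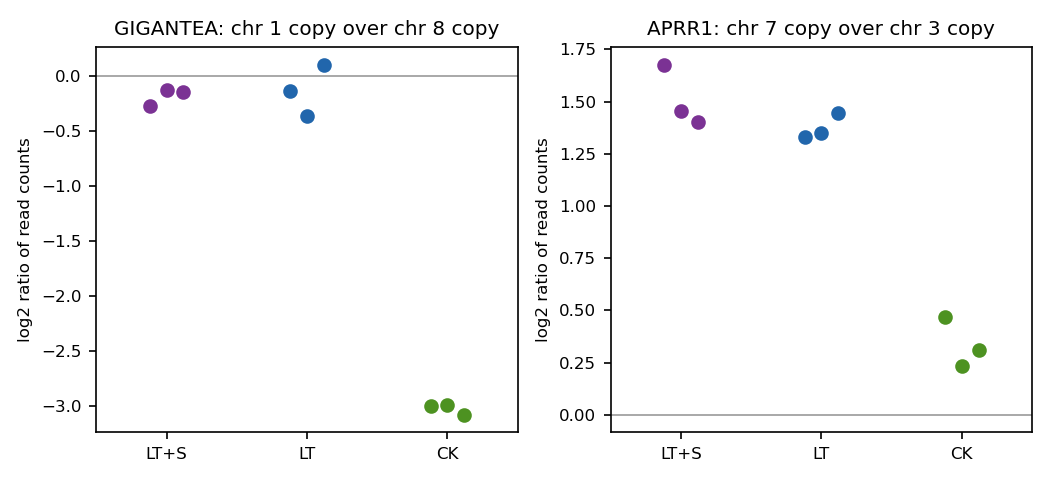
Log2 ratio of read counts between the copies of GIGANTEA (left) and of APRR1 (right) in each library of LT+S, LT and CK (points). The GIGANTEA ratio lay between -0.36 and 0.11 in the cold libraries and between -3.08 and -2.99 in CK, and the APRR1 ratio lay between 1.33 and 1.68 in the cold libraries and between 0.23 and 0.47 in CK.

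The genes beside the GIGANTEA copies were looked up in the RefSeq annotation. On both chromosomes the nearest gene on one side is described as 40S ribosomal protein S18 and the next as UDP-rhamnose/UDP-galactose transporter 6, in mirrored order along the coordinates. The ribosomal gene lies 3108 bases from the chromosome 1 copy and 1429 bases from the chromosome 8 copy. Beside the chromosome 1 copy, the ribosomal gene LOC111242605 had a log2 fold change of -0.65 in LT against CK (adjusted p = 0.0533 from edgeR) and the transporter gene LOC106762233 one of 0.46 (adjusted p = 0.0890 from edgeR), so that neither was called. Beside the chromosome 8 copy, the ribosomal gene LOC106770774 fell by 1.12 on the log2 scale (adjusted p = 9.5e-04 from edgeR), and the transporter gene LOC106772658, with 64 counts in all 9 libraries, was not tested. Carboxypeptidase SOL1 (LOC106772299), on the other side of that copy, fell by 0.97 (adjusted p = 0.00110 from edgeR). None of these tested neighbours of the GIGANTEA copies was called higher in LT. The next annotated gene beyond the chromosome 1 copy, 341035 bases away, is a tryptophan aminotransferase-related gene (LOC106765714), with a mean of 36.5 CPM in LT+S, 5.69 CPM in LT and 37.2 CPM in CK. It fell by 2.71 on the log2 scale in LT against CK (adjusted p = 6.1e-05 from edgeR), and it is 1 of the 3 genes of the whole table called between LT+S and LT (log2 fold change 2.68, adjusted p = 0.00609 from edgeR).

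**Figure D3:**
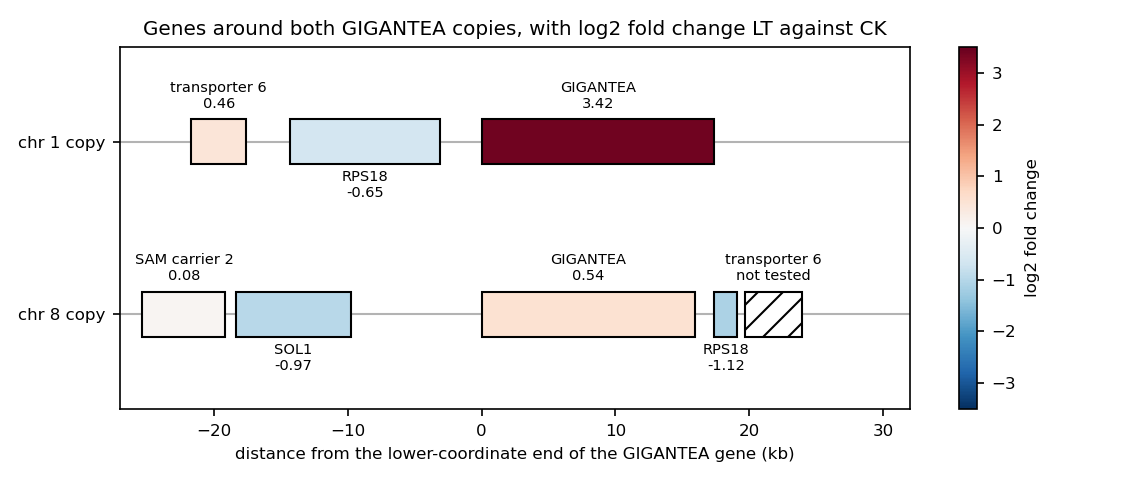
Annotated genes around the chromosome 1 copy (top) and the chromosome 8 copy (bottom) of GIGANTEA, drawn to scale in kb from the lower-coordinate end of each GIGANTEA gene, with the log2 fold change of LT against CK as colour and number. RPS18 is 40S ribosomal protein S18, transporter 6 is UDP-rhamnose/UDP-galactose transporter 6, SOL1 is the carboxypeptidase and SAM carrier 2 an S-adenosylmethionine carrier. The chromosome 1 copy stands at 3.42 and its neighbours at -0.65 and 0.46, while the chromosome 8 copy stands at 0.54 beside neighbours at -1.12 and -0.97.

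The copies of APRR1, a repressor of morning genes that closes the main loop of the Arabidopsis clock, also responded unequally. The chromosome 7 copy (LOC106769035) had 32.4, 31.2 and 37.8 CPM in LT+S, 25.97, 29.5 and 29.0 CPM in LT and 16.6, 18.3 and 17.5 CPM in CK. None of the 3 groups overlapped another, with CK lowest and LT+S highest. It was 1.61-fold higher in LT (0.69 ± 0.11 on the log2 scale, edgeR adjusted p = 0.00116) and 1.93-fold higher in LT+S, both against CK (0.95 ± 0.11 on the log2 scale, edgeR adjusted p = 3.1e-04).

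The chromosome 3 copy (LOC106756669) had 10.1, 11.4 and 14.3 CPM in LT+S, 10.3, 11.6 and 10.6 CPM in LT and 12.02, 15.6 and 14.1 CPM in CK. The LT libraries all lay below the CK libraries, as for 27% of all genes, while LT+S overlapped both groups. Its log2 fold change was -0.36 in LT against CK (95% interval -0.73 to 0.01, adjusted p = 0.101 from edgeR) and -0.22 in LT+S against CK (95% interval -0.59 to 0.15, adjusted p = 0.310 from edgeR), and with libraries scaled by their totals the values were 0.15 and 0.27, so that no direction is given for this copy. In the ratio of reads, which does not depend on scaling, the chromosome 7 copy had 3.198, 2.74 and 2.64 reads for each read of the chromosome 3 copy in LT+S, 2.51, 2.55 and 2.72 in LT and 1.38, 1.18 and 1.24 in CK. The log2 ratio was 1.04 higher in LT and 1.17 higher in LT+S, both against CK (exact permutation test, 2-sided, p = 0.1 in both). Between LT+S and LT it differed by 0.14 (exact permutation test, 2-sided, p = 0.2).

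APRR5 (LOC106760140), a repressor of LHY and its relatives that acts in the later part of the day in Arabidopsis, had 227, 178 and 224 CPM in LT+S, 143, 208 and 188 CPM in LT and 100.1, 88.8 and 88.1 CPM in CK. All cold libraries were above all CK libraries, and the spread was wider in the cold. It was 1.94-fold higher in LT than in CK (0.96 ± 0.16 on the log2 scale, edgeR adjusted p = 0.00156) and 2.27-fold higher in LT+S than in CK (1.18 ± 0.16 on the log2 scale, edgeR adjusted p = 7.1e-04). The pentatricopeptide repeat gene that begins 159 bases beyond it (LOC106760158) had log2 fold changes of -0.07 and 0.07 (adjusted p = 0.784 and 0.774 from edgeR).

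LUX (LOC106754173), the MYB-like subunit of the evening complex, was the gene with the fewest reads, 40, 64 and 71 in LT+S, 80, 50 and 81 in LT and 25, 23 and 10 in CK. On the CPM scale these were 1.71, 2.70 and 2.97 in LT+S, 3.36, 2.28 and 3.30 in LT and 1.45, 1.37 and 0.655 in CK. Cold and CK libraries did not overlap, although LT+S 1 and CK 1 were close, and the 10 reads of CK 3 carry a 95% counting interval of 4.80 to 18.4 reads, which covers counting error only. LUX was 2.55-fold higher in LT than in CK (1.35 ± 0.36 on the log2 scale, edgeR adjusted p = 0.0135) and 2.11-fold higher in LT+S than in CK (1.08 ± 0.36 on the log2 scale, edgeR adjusted p = 0.0392). The call in LT held without any 1 library (adjusted p = 0.0146 to 0.0422 from edgeR). In LT+S it did not hold without LT+S 2 (edgeR adjusted p = 0.104), LT+S 3 (0.121), CK 2 (0.0711) or CK 3 (0.0908), with limma-voom (0.0563) and with the 6 libraries of the comparison alone (0.0599). The ubiquitin ligase gene RDUF2 (LOC106756504), 23447 bases from LUX, was also called higher. It rose by 1.33 in LT and by 1.02 in LT+S (adjusted p = 0.0131 and 0.0418 from edgeR). Pumilio homolog 2 (LOC106754180), between them, was not called in LT (0.24, adjusted p = 0.258 from edgeR). The nearest gene on the other side (LOC106778626) fell by 1.04 in LT (adjusted p = 0.0180 from edgeR).

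**Figure D4:**
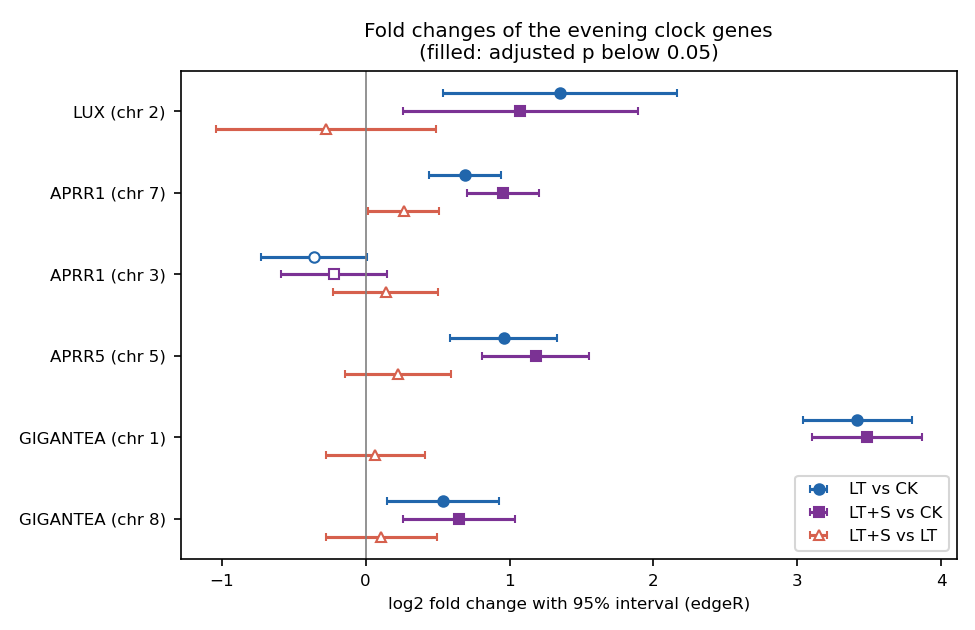
Log2 fold changes (horizontal axis) of the 6 evening clock genes with their 95% intervals from edgeR, for LT against CK (circles), LT+S against CK (squares) and LT+S against LT (triangles), where filled symbols have an adjusted p below 0.05. In the comparisons with CK 5 genes are filled and the chromosome 3 copy of APRR1 is open, and no gene is filled for LT+S against LT.

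Under cold, uniconazole made no difference to the 6 genes that passed the test. Between LT+S and LT, 0 of the 6 genes were called by edgeR, by DESeq2 or by limma-voom, and 1 had an unadjusted p below 0.05 in edgeR. In that comparison 3 genes, 0.0155% of those tested, were called in all by edgeR, and 7.07% had an unadjusted p below 0.05, while DESeq2 called 228 genes. The gene with the unadjusted p below 0.05 was the chromosome 7 copy of APRR1, whose LT+S libraries were all above those of LT, as were those of 7.21% of all genes. Its log2 fold change was 0.26, with a 95% interval of 0.02 to 0.51 (adjusted p = 0.667 from edgeR). For the other genes the intervals include 0 and bound what the data allow. The interval was -0.28 to 0.41 for the chromosome 1 copy of GIGANTEA and -0.28 to 0.50 for the chromosome 8 copy. It was -0.14 to 0.59 for APRR5 and -0.23 to 0.51 for the chromosome 3 copy of APRR1. For LUX, with its few reads, it was the widest of the 6, from -1.04 to 0.49.

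The 6 genes did not share a single profile over the libraries. As a description, the difference between 2 genes was taken as the root mean square difference of their log2 CPM over the 9 libraries, after each was centred on its own mean. It was smallest between APRR5 and the chromosome 7 copy of APRR1, at 0.18, followed by that copy and the chromosome 8 copy of GIGANTEA at 0.22 and by APRR5 and that GIGANTEA copy at 0.27. The chromosome 1 copy of GIGANTEA differed from every other member by 1.11 to 1.78, and from its own copy by 1.36. CK 3 had the lowest level of both GIGANTEA copies, of LUX and, narrowly, of APRR5 (88.1 CPM, beside 88.8 CPM in CK 2). The chromosome 7 copy of APRR1 was lowest in CK 1 and the chromosome 3 copy in LT+S 1. CK 3 was also the library with the highest summed level of the vein genes, and a link between these levels was not tested.

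Among 9998 or 9999 other described genes with a mean of at least 10 CPM, those closest in profile to each member were named by the same measure. For the chromosome 1 copy of GIGANTEA they were probable O-methyltransferase 3 (LOC106753931, 0.26), the NAC factor NAC100 (LOC106757170, 0.27) and an E3 ubiquitin ligase described as LIN (LOC106769321, 0.27). For the chromosome 8 copy they were histone H3.3 (LOC106764731, 0.08), an acidic nuclear phosphoprotein (LOC106768759, 0.09) and the ubiquitin ligase LOG2 (LOC106755477, 0.09). LUX was closest to a vacuolar iron transporter homolog (LOC106771149, 0.18), F-box/LRR-repeat protein 3 (LOC106774256, 0.21) and 1 of the ELF3 genes (LOC106762260, 0.22), which encodes another subunit of the evening complex. UPF0187 protein At3g61320 (LOC106773005) was among the closest of both APRR5 (0.15) and the chromosome 7 copy of APRR1 (0.11). The other genes closest to APRR5 were the metalloproteinase 2-MMP (LOC106767090, 0.12) and cysteine proteinase RD21A (LOC106764715, 0.15). Those closest to the chromosome 7 copy of APRR1 were AT-hook protein 2 (LOC106779426, 0.07) and GDP-mannose 3,5-epimerase 1 (LOC106772513, 0.12), and those closest to its chromosome 3 copy were an RNA-binding ribonucleoprotein (LOC106764923), a receptor-like kinase (LOC106779333) and a CCCH zinc finger protein (LOC106772354), each at 0.10.

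Among the partners of LUX in the evening complex more genes were higher than lower under cold. Of 8 genes for ELF3, ELF4 and ELF4-LIKE proteins, 4 were higher and 1 lower in LT than in CK (median log2 fold change 1.14), and 3 were higher and 0 lower in LT+S than in CK (median 0.94), so that 62.5% of them were called in LT and 37.5% in LT+S, beside 46.5% and 41.7% of all genes. With library totals 7 were higher and 0 lower in LT, and 6 were higher and 0 lower in LT+S. On that scale 80.0% of the calls over all genes were higher in LT and 81.8% in LT+S. The ELF3 gene LOC106765119 had 37.7, 38.6 and 39.0 CPM in LT+S, 42.7, 38.3 and 44.2 CPM in LT and 16.0, 15.9 and 12.4 CPM in CK, a log2 fold change of 1.499 in LT against CK (adjusted p = 5.7e-05 from edgeR). The other ELF3 gene (LOC106762260) had a log2 fold change of 1.77 in LT (adjusted p = 0.00207 from edgeR) and of 1.26 in LT+S (adjusted p = 0.0121 from edgeR) against CK. ELF4 itself (LOC106764608) was at 2.95, 4.64 and 3.68 CPM in LT+S, 4.58, 2.55 and 4.65 CPM in LT and 1.97, 2.26 and 2.62 CPM in CK, and was not called in LT (log2 fold change 0.78, adjusted p = 0.0537 from edgeR) or LT+S (0.72, adjusted p = 0.0781). The ELF4-LIKE 1 gene LOC106764307 rose by 1.61 in LT and by 1.56 in LT+S (adjusted p = 1.7e-04 and 2.6e-04 from edgeR).

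Among the F-box proteins of the ADAGIO family, which bind GIGANTEA in Arabidopsis, the gene for ADAGIO 3 (LOC106765618, also called FKF1) had 49.7, 60.4 and 77.6 CPM in LT+S, 63.7, 59.8 and 62.7 CPM in LT and 5.05, 7.92 and 9.36 CPM in CK. Cold and CK libraries did not overlap, with log2 fold changes of 3.06 in LT and 3.07 in LT+S (adjusted p = 5.1e-05 and 6.4e-05 from edgeR). Of the ADAGIO 1 genes (also called ZEITLUPE), LOC106755176 rose by 0.91 in LT and by 0.99 in LT+S (adjusted p = 8.7e-04 and 7.3e-04 from edgeR), while LOC106755199 had values of -0.48 and -0.42 (adjusted p = 0.00393 and 0.00893 from edgeR) that became 0.02 and 0.07 with libraries scaled by their totals.

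Genes that act in the morning in Arabidopsis were more often called lower than higher on the TMM scale. With library totals, where most calls over all genes were higher, they were called about equally often in each direction. Of 17 tested genes for LHY, REVEILLE and LNK proteins, 9 were lower and 1 higher in LT than in CK (median log2 fold change -0.65) and 8 were lower and 0 higher in LT+S (median -0.51), while 7 of the 17 in LT and 9 of the 17 in LT+S were not called. Calls thus made up 58.8% of them in LT and 47.1% in LT+S, beside 46.5% and 41.7% of all genes. Lower calls made up 23.7% and 21.9% of all genes. With libraries scaled by their totals 4 of the morning genes were lower and 5 higher in either comparison. Over all genes, 80.0% of the calls on that scale were higher in LT and 81.8% in LT+S. The LHY gene LOC106778180 fell by 1.04 in LT and by 1.06 in LT+S (adjusted p = 0.00184 and 0.00206 from edgeR), and by 0.54 and 0.57 with library totals. The other LHY gene (LOC106760137) was not called, with values of -0.26 in LT and -0.33 in LT+S (adjusted p = 0.206 and 0.119 from edgeR) that became 0.24 and 0.16 with library totals. The LNK2 genes LOC106768266 and LOC106761989 fell by 1.52 and 1.28 in LT (adjusted p = 1.3e-04 and 3.7e-04 from edgeR). Of 5 other pseudo-response regulators 1 was higher and 2 were lower in LT than in CK, and 0 were higher and 2 lower in LT+S. This was 60% of them called in LT and 40% in LT+S, beside 46.5% and 41.7% of all genes. With library totals 2 were higher and 1 lower in each comparison, on the scale where 80.0% and 81.8% of all calls were higher. PRR37 (LOC106755706), named after a rice gene, had 266, 181 and 202 CPM in LT+S, 158, 210.5 and 138 CPM in LT and 714, 655 and 579 CPM in CK (log2 fold change -1.94 in LT, adjusted p = 1.7e-04 from edgeR), and APRR7 (LOC106754416) fell by 0.72 in LT (adjusted p = 0.00195 from edgeR; -0.22 with library totals, where it was not called).

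**Figure D5:**
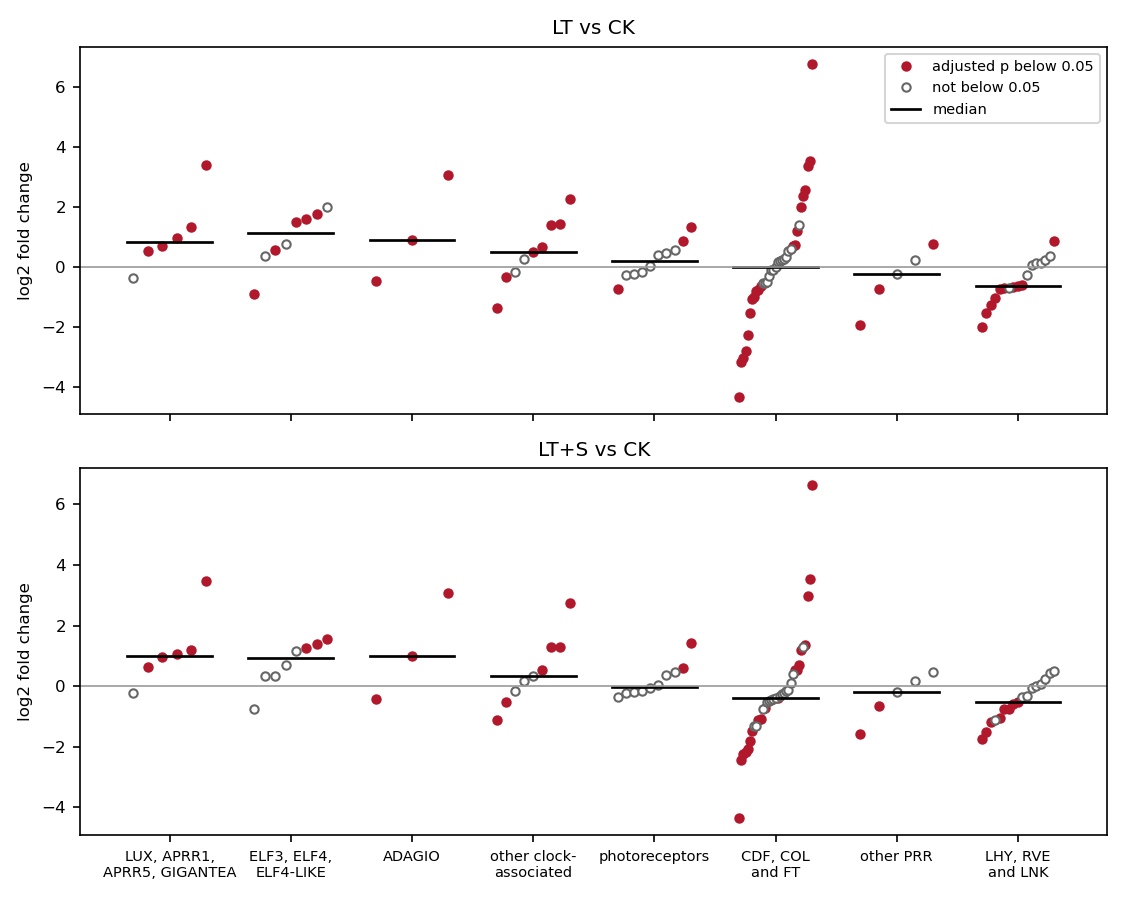
Log2 fold changes (vertical axis) of the evening clock genes and of other clock genes by role, for LT against CK (top) and LT+S against CK (bottom), where each point is a gene, filled at an adjusted p below 0.05, and bars are medians. RVE is REVEILLE, CDF cyclic dof factor, COL CONSTANS-LIKE, FT FLOWERING LOCUS T and its relatives, and PRR pseudo-response regulator. The medians in LT against CK were 0.82 for the evening genes, 1.14 for their ELF partners and -0.65 for the morning genes.

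Over all 87 tested genes of the clock list beyond the 6 evening genes, 24 were higher and 27 lower in LT than in CK, and 19 were higher and 24 lower in LT+S than in CK. This was 58.6% of the list called in LT and 49.4% in LT+S, beside 46.5% and 41.7% of all genes, with calls in both directions. With library totals the counts higher and lower were 39 and 13 in LT and 36 and 13 in LT+S. On that scale 80.0% of the calls over all genes were higher in LT and 81.8% in LT+S. Between LT+S and LT edgeR called 0 of the 87 (9 had an unadjusted p below 0.05), limma-voom called 0, and DESeq2 called 0 higher and 4 lower. All of the latter are described as CONSTANS-LIKE or FLOWERING LOCUS T family genes. Values of the genes with the smallest p of their role in edgeR were -0.51 for the ELF3 gene LOC106762260 (adjusted p = 0.813 from edgeR), 0.36 for PRR37 (0.797), 0.06 for the ADAGIO 1 gene LOC106755199 (0.940) and -0.34 for REVEILLE 5 (LOC106774316, 0.694), so that none of the roles closest to the evening genes held a called difference.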

How the data were processed

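The authors deposited 1 table of raw counts per gene for 9 leaf libraries, made from reads trimmed with Trimmomatic, aligned to Vradiata_ver6 with hisat2 and counted with htseq-count. bowtie2, eXpress, CASAVA 1.8 and Cufflinks are also named. The strand setting and the handling of multi-mapped reads are not stated. The columns of the table were matched to samples by title. Counts of 19561896 to 21617340 per library were filtered by filterByExpr (19304 genes), scaled by TMM and fitted by group over 9 libraries with edgeR 4.0.16 in R 4.3.3 (quasi-likelihood test, Benjamini-Hochberg adjustment over all genes tested). Standard errors were taken as the log2 fold change over the root of F, and 95% intervals from these. Positions came from the RefSeq gene table of Vradiata_ver6, in which all 6 members were found.

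Alternatives were DESeq2 1.42.0, its size factors, library totals, no filter, a mean of at least 1 CPM, 6 libraries, a replicate block, limma-voom (limma 3.58.1) and each library left out. The members and gene lists were chosen with earlier results of these data known, and list patterns were then fitted to the wording of the descriptions. The gene described as HEADING DATE 3B was left out of the list. Named genes were the members, ELF3 and ELF4 genes, per role the 2 genes with the smallest p in LT against CK and the 1 in LT+S against LT, and per member the 3 genes most alike. The LHY genes, the genes beside the members and further CONSTANS-LIKE, FLOWERING LOCUS T family and JMJ30 genes were named after values were seen. Each pair of libraries of a group differed by more than sampling noise. The pipeline was tested on simulated data. Sequences were not analysed here. Plots used matplotlib 3.10.9 (Python 3.11.15).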

Additional observations from a re-analysis of the deposited data

How the results depend on the processing

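Replicate numbers are shared between groups, but the deviations of same-numbered libraries correlated across genes at -0.30 to 0.27, so the numbers were not taken as pairs. With the number as a replicate block LUX in LT+S against CK had a log2 fold change of 1.08 and an adjusted p of 0.0816 from edgeR, and 6 genes were called in all between LT+S and LT. Over 42 alternatives, counts of evening genes called stayed within 1.5 times those reported. The calls lost were those of LUX in LT+S (in 7 of 14 alternatives) and of the chromosome 8 copy of GIGANTEA (5 of 14 in LT, of which 4 leave out a library and 1 uses the 6 libraries compared, and 1 of 14 in LT+S against CK). The chromosome 1 copy of GIGANTEA, APRR5 and the chromosome 7 copy of APRR1 were called against CK in all 14. Signs turned, without a call, for the chromosome 3 copy of APRR1 with library totals (0.15 in LT and 0.27 in LT+S against CK) and with 1 library left out (-0.012 to 0.24 in LT+S against LT, below 0 without LT+S 3). The GIGANTEA ratio between LT+S and LT was -0.17 to 0.068 with 1 library left out, above 0 without LT 3, in an alternative chosen after seeing the data. With library totals the clock list had 39 higher and 13 lower in LT, and 36 higher and 13 lower in LT+S, against CK, as all genes shift on that scale. Between LT+S and LT, DESeq2 called 228 genes in all, 4 of them lower in the clock list, and edgeR called 0 with the 6 cold libraries and 0 to 7 with 1 library left out; the cause was not tested. Depth limits LUX, whose libraries held 10 to 81 reads.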

Other observations

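Genes described as cyclic dof factors, CONSTANS-LIKE proteins or the FLOWERING LOCUS T family went in both directions. They were listed by description, and whether each acts downstream of GIGANTEA was not tested. Of 35 tested, 9 were higher and 11 lower in LT than in CK, and 8 were higher and 11 lower in LT+S than in CK. This was 57.1% of them called in LT and 54.3% in LT+S, beside 46.5% and 41.7% of all genes. With library totals 12 were higher and 7 lower in LT, and 9 were higher and 7 lower in LT+S. On that scale 80.0% of the calls over all genes were higher in LT and 81.8% in LT+S. The CONSTANS-LIKE 2 gene LOC106768879 had 88, 110 and 133 reads in LT+S, 114, 80 and 173 reads in LT and 0, 1 and 1 reads in CK. Of the same description, LOC106766133 also rose, by 3.55 in LT, with 12, 10 and 16 reads in LT and 1, 1 and 0 in CK. LOC106759494, with means of 173 CPM in LT and 349 CPM in CK, fell by 1.01 in LT and by 1.11 in LT+S (adjusted p = 0.00202 and 0.00153 from edgeR). Both were named after their values were seen. The CONSTANS-LIKE 4 gene LOC106771336 had 3.72, 4.51 and 4.39 CPM in LT+S, 10.002, 8.70 and 10.6 CPM in LT and 1.86, 1.67 and 1.38 CPM in CK. None of its 3 groups overlapped, and its log2 fold change of -1.21 in LT+S against LT did not pass the adjustment (adjusted p = 0.0775 from edgeR and 3.9e-07 from DESeq2). The other genes described as CONSTANS-LIKE 4, named after their values were seen, were not called higher. LOC106762875 stood at -0.29 in LT and -0.38 in LT+S against CK (adjusted p = 0.0602 and 0.0237 from edgeR), and at 0.22 and 0.11 with library totals. LOC106772449 stood at -0.53 and -0.49 (adjusted p = 0.318 and 0.367 from edgeR). The FLOWERING LOCUS T family gene LOC106766377, described as HEADING DATE 3A and named after its values were seen, had 19.8, 32.1 and 37.0 CPM in LT+S, 130.1, 164 and 106 CPM in LT and 58.4, 29.7 and 11.9 CPM in CK, with a log2 fold change of -2.17 in LT+S against LT (adjusted p = 0.289 from edgeR; 0.00157 from DESeq2). Against CK it rose by 1.99 in LT. The other tested genes of that description did not, with -4.35 for LOC106758531, -3.19 for LOC106758881 and -1.52 for LOC106758876, all called lower by edgeR. LOC106758531 and LOC106758881 had few reads. LOC106758531 had 0, 0 and 2 in LT and 11, 11 and 12 in CK, and LOC106758881 had 1, 2 and 4 in LT and 21, 10 and 16 in CK. LOC106758895, at 0.18, was not called in LT, but was lower in LT+S against CK (-1.79, adjusted p = 0.026 from edgeR). In LT+S against LT it stood at -1.97 (adjusted p = 0.394 from edgeR and 0.0268 from DESeq2). The gene described as FLOWERING LOCUS T (LOC106753827), named after its values were seen, stood at -3.66 there (adjusted p = 0.291 from edgeR and 0.0026 from DESeq2). The other listed genes of the family were not called by DESeq2 in that comparison. The CONSTANS-LIKE 16 genes LOC106765721 and LOC106769784, named after their values were seen, fell by 3.04 and 2.82 in LT. LOC106779851, of the same description, fell by 2.27, with 2, 3 and 3 reads in LT and 6, 11 and 11 in CK.

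Of 10 photoreceptor genes, 2 were higher and 1 lower in LT than in CK, and 2 were higher and 0 lower in LT+S, so that 30% and 20% of them were called, beside 46.5% and 41.7% of all genes. With library totals 5 were higher and 0 lower in LT, and 6 were higher and 0 lower in LT+S. On that scale 80.0% of the calls over all genes were higher in LT and 81.8% in LT+S. The cryptochrome 2 gene LOC106772455, a blue-light receptor, had 51.9, 51.2 and 55.2 CPM in LT+S, 51.6, 46.9 and 49.6 CPM in LT and 26.5, 19.7 and 12.9 CPM in CK (log2 fold change 1.32 in LT and 1.42 in LT+S, adjusted p = 0.00123 and 0.00107 from edgeR). The cryptochrome 1 gene LOC106762173 rose by 0.88 in LT (adjusted p = 0.0115 from edgeR), and its value in LT+S was 0.36 (adjusted p = 0.232). Of 9 tested genes with other roles in the clock, 5 were higher and 2 lower in LT than in CK, and 4 were higher and 2 lower in LT+S. This was 77.8% of them called in LT and 66.7% in LT+S, beside 46.5% and 41.7% of all genes. With library totals 6 were higher and 1 lower in each comparison, on the scale where 80.0% and 81.8% of all calls were higher. The TIME FOR COFFEE gene LOC106772194 rose by 1.42 in LT and by 1.29 in LT+S (adjusted p = 6.4e-05 and 1.2e-04 from edgeR). Of 3 genes described as the histone demethylase JMJ30, whose Arabidopsis namesake peaks in the evening, 1 was higher, 1 was lower and 1 was not called in each comparison with CK. LOC106755596 had 26.1, 20.9 and 20.6 CPM in LT+S, 12.9, 20.4 and 15.4 CPM in LT and 2.55, 2.92 and 4.71 CPM in CK. Its log2 fold changes against CK were 2.26 in LT and 2.73 in LT+S (adjusted p = 2.4e-04 and 1.5e-04 from edgeR). LOC106777745, named after its values were seen, had 3.63, 3.498 and 3.43 CPM in LT+S, 3.19, 3.60 and 2.12 CPM in LT and 9.06, 6.67 and 7.14 CPM in CK, and fell by 1.36 in LT and by 1.11 in LT+S (adjusted p = 0.00151 and 0.00464 from edgeR). LOC106772418, also named after its values were seen, stood at -0.15 in LT and -0.17 in LT+S (adjusted p = 0.370 and 0.335 from edgeR), and at 0.35 and 0.32 with library totals.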
